A study of Mus musculus with 7 samples.

Results

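Microglia, the resident macrophages of the brain, were compared between glioma-bearing mice that received an antibody to CTLA4 together with depletion of CD4 T cells by an antibody to CD4 and mice labelled as receiving the CTLA4 antibody alone. The comparison used every gene that reached 1 FPKM (fragments per kilobase of transcript, scaled to a fixed library total) in 2 or more of the 5 libraries, which held for 12660 of the 24537 genes in the table. At the edge of this filter, the second highest value was 1 FPKM in the nearest gene inside and 0.999 in the nearest gene outside. With CD4 depletion, 8 of the 9 tested MHC class II genes were lower, where 6.86% of all tested genes were lower. Higher were 18 of 22 mitosis genes and 19 of 23 glioma-lineage genes, where 23.7% of all were higher. Of those 23, 4 passed the filter only through CD4 depletion libraries, as did 405 of the 2997 genes called higher. The filter favoured higher values there for these genes. Without replicate 2 of CD4 depletion 6 glioma-lineage genes and 1 mitosis gene passed, and without replicate 3 likewise. In either direction 30.5% of all tested genes passed.

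The groups were CD4 depletion + anti-CTLA4 (n = 3), anti-CTLA4 (n = 2) and control IgG (n = 2), and all came from C57BL/6 mice at day 35 after implantation of Glioma-005, a mouse glioblastoma model. Every library was made from CD45int CX3CR1+ cells sorted from the tumour-bearing brain, so the tumour, the strain and the sort were shared, and no tumour-free brain served as a reference. CTLA4 is an inhibitory receptor of T cells, and CD4 depletion removes helper T cells and CD4-positive regulatory T cells alike. Age, sex, antibody doses and the number of animals per library are not given in the sources used here, so p-values refer to the variation among the libraries alone, and this may be technical. IgG values are given beside the comparison as context and were not tested in it.

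The identity of the anti-CTLA4 columns is uncertain. Their names carry sample sheet numbers 29 and 30, whereas 10 and 11 are the numbers of these samples in their descriptions and in the table header. The command in that header lists 40 libraries, and there 29 and 30 belong to names that denote an interferon-gamma receptor knockout. Names and not numbers were followed here, the pair is called the libraries labelled anti-CTLA4, and every direction below rests on that reading. Ifngr1, which encodes the ligand-binding chain of the interferon-gamma receptor, stood at 204 and 271 FPKM in these libraries, at 140.3, 142 and 133 with CD4 depletion and at 143 and 107 in IgG. A count over all exons does not check the label, because a disrupted gene can still be transcribed.

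Low values implied a depth of 84150000 to 107600000 reads in each library. Genes held 49883087 to 61850986 of these, and 11348 to 12401 genes reached 1 FPKM. The microglial genes P2ry12, Tmem119 and Cx3cr1 were present in all libraries, at 147 to 1088, 243 to 1001 and 211 to 752 FPKM. Replicate 1 of CD4 depletion stood apart from the others of its group, with correlations of 0.914 and 0.932 across genes against 0.975 between replicates 2 and 3. Such correlations run across genes, which are not independent. In that library the monocyte and recruited macrophage list summed to 2761 FPKM, against 100.5 to 206 in the other libraries.

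Cd4 itself was close to the floor of a sorted microglial library. Its level was 0.226, 0.115 and 0.142 FPKM with CD4 depletion, 0.823 and 0.723 in the libraries labelled anti-CTLA4 and 0.23 and 0.439 in IgG, which corresponds to 75.0, 31.1 and 41.1 reads, 237.1 and 200.9 reads, and 59.9 and 113.9 reads. All CD4 depletion libraries were lower than both libraries labelled anti-CTLA4. Ctla4, the gene of the antibody's target, had the same order, at 0.111, 0.154 and 0 FPKM against 0.45 and 0.288. Cd3e, a chain of the T cell receptor complex, stood at 0.548, 0.576 and 0.344 FPKM against 1.06 and 0.575, and Cd8a at 0.171, 0.111 and 0.369 FPKM against 0.083 and 0.036. These genes did not pass the filter and were not tested.

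MHC class II molecules display peptides to CD4 T cells. Their alpha and beta chains are assembled on the invariant chain Cd74, which is then degraded in the endosome, and the H2-DM protein exchanges the remaining fragment for antigenic peptide while H2-O restrains H2-DM. In macrophages and microglia, interferon-gamma from T cells induces Ciita, the coactivator that turns on class II promoters once the RFX and NF-Y complexes are bound there. The same cytokine induces class I chains, the immunoproteasome, peptide transporters, guanylate-binding proteins and the chemokines Cxcl9, Cxcl10 and Cxcl11.

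The promoters of 4 class II genes are shown because these genes fell together and because their shared letters are the site at which NF-Y is known to bind. The windows are the 250 bases before the gene start in RefSeq, build GRCm38.p6, 5′ to 3′ on the gene's own strand. Capitals mark CTGATTGG, a form of the Y box, or in H2-DMb1 only its core ATTGG. H2-Aa is shown from chr17:34287824-34288073 on the minus strand, H2-Eb1 from chr17:34305617-34305866, H2-Oa from chr17:34092129-34092378 and H2-DMb1 from chr17:34152941-34153190, these 3 on the plus strand.
H2-Aa: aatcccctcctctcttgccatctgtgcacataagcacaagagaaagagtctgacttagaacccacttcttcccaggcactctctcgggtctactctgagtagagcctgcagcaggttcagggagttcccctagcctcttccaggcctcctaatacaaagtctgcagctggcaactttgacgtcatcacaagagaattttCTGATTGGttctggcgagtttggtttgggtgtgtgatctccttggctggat
H2-Eb1: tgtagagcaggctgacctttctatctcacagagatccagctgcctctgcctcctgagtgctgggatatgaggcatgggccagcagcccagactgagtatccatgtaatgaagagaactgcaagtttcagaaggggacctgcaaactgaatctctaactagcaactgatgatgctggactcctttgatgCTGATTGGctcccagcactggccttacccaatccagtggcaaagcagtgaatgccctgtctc
H2-Oa: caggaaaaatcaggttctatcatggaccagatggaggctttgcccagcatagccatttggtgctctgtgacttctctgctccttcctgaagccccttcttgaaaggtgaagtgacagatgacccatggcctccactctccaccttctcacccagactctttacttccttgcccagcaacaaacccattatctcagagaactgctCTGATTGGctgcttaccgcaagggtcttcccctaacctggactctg
H2-DMb1: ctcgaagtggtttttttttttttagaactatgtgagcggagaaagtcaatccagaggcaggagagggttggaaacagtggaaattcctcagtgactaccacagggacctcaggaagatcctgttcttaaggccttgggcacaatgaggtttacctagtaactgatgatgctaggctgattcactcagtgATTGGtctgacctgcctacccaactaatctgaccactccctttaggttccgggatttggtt

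The marked letters ended 44 bases before the gene start in H2-Aa, 55 in H2-Eb1, 39 in H2-Oa and 57 in H2-DMb1. CTGATTGG on either strand was found in 3 of the 7 tested class II genes with a window, in 4 of 9 class I genes, in 3 of 11 immunoproteasome and loading genes and in 0 of 4 guanylate-binding protein genes, against 4.43% of 27025 genes with a window and 6.36% of the 9595 tested here. In the class I genes the match was on the reverse strand each time. The core ATTGG on either strand, which overlaps CTGATTGG, was in all 7 class II and all 9 class I genes, against 40.6% of the tested genes. A gene counted when any of its windows matched. In H2-DMa the window at chr17:34122582-34122831 lacked the core on both strands, and another window held it. Among class II genes not called lower as deposited, H2-DMb2 had the core, and H2-Eb2, which was below the filter, had CTGATTGG. H2-Eb1 and H2-DMb1 also share a run of 13 bases, AACTGATGATGCT, that starts at positions 162 and 159 of their windows, upstream of the marked letters. A match is a description of letters and not of binding. No window was matched for H2-Ab1 and Cd74.

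Across all genes, 869 were lower with CD4 depletion (6.86% of those tested) and 2997 were higher (23.7%), by limma with Benjamini-Hochberg adjustment at 0.05. Every CD4 depletion library lay below every library labelled anti-CTLA4 for 15.9% of genes and above for 44.7%. The median log2 fold change of all tested genes, taken here and below as CD4 depletion minus anti-CTLA4 on log2(FPKM + 1), was 0.26. With libraries scaled by the median of ratios this median was near 0 and the counts were 1644 lower and 1529 higher, so the share of lower calls depends on the scaling. Both limma counts were 0 without replicate 2 of the libraries labelled anti-CTLA4, where 3282 genes had an unadjusted p under 0.05 against 5826 with it, and so were the counts of called members in every list. Other libraries moved the counts as well: the class II count stayed at 8 or 9 without any 1 of the other 4 libraries, but without replicate 3 of CD4 depletion 275 genes were lower and 796 higher. There the lysosomal list went from 16 lower to 2, the type I interferon list from 16 to 5, the class I list from 11 to 4, the interferon receptor and signalling list from 10 to 3 and the constitutive proteasome list from 10 higher to 0 by limma, with 11 at an unadjusted p under 0.05. The counts of calls below depend on single libraries in this way unless said otherwise.

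A second scaling bears on how the lower groups are read. The homeostatic microglia list summed to 18462 and 28896 FPKM in the libraries labelled anti-CTLA4, 7726, 15514 and 14224 with CD4 depletion and 14173 and 11390 in IgG, while the glioma and oligodendrocyte precursor list summed to 294 and 106 FPKM, 572, 1409.5 and 1215 FPKM and 1312 and 1952 FPKM in the same order. The libraries labelled anti-CTLA4 were thus higher in the first list and lower in the second than all others. In bulk libraries, fewer cells of a type and less RNA per cell cannot be told apart. Results are therefore also given with each library scaled to the mean log2 level of its 29 tested homeostatic genes, which raised the median of all genes to 0.91 and left 111 genes lower and 7219 higher. The part of either list in the results below was not tested.

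**Figure D1:**
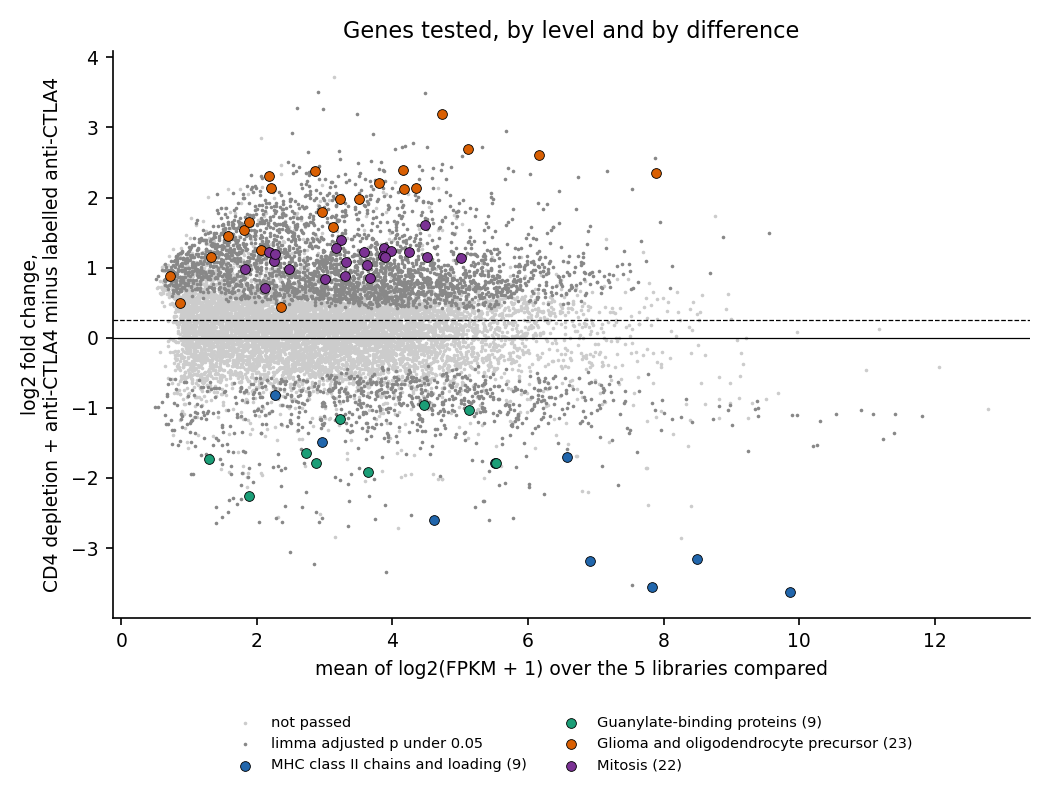
Each point is 1 of the 12660 tested genes, with the mean of log2(FPKM + 1) over the 5 libraries on the x axis and the log2 fold change of CD4 depletion + anti-CTLA4 minus the libraries labelled anti-CTLA4 on the y axis; dark grey marks limma adjusted p under 0.05, colours mark 4 gene lists and the dashed line is the median of 0.26. All 9 class II and all 9 guanylate-binding protein genes lie below 0, also under each scaling tried, and all 23 glioma-lineage and 22 mitosis genes lie above 0, again under each scaling.

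Among the class II chains, 8 of 9 tested genes fell, 0 rose and 1 did not pass, with a median log2 fold change of -2.60. Scaling to the homeostatic list left 7 lower and a median of -1.79, and without replicate 2 of anti-CTLA4 the median was -2.33. Cd74, the invariant chain, stood at 335, 409 and 290.4 FPKM with CD4 depletion, 4436 and 4018 in the libraries labelled anti-CTLA4 and 1101 and 1956 in IgG. Its groups of 345 ± 59.6 FPKM (SD, n = 3) and 4227 ± 295 (SD, n = 2) did not overlap, the IgG libraries lay between them, and the log2 fold change was -3.62 (limma adjusted p = 0.00896, SE 0.33). Cd74 lies on chromosome 18 from 60803849 to 60812652 (mm10).

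The alpha and beta chains followed the same order. H2-Aa, the alpha chain of I-A, was at 85.9, 102 and 68.4 FPKM with CD4 depletion, 1035 and 961 with anti-CTLA4 and 327 and 474 in IgG, a log2 fold change of -3.55 (limma adjusted p = 0.00585, SE 0.24). H2-Ab1, its beta chain, was at 153, 173 and 124 FPKM with CD4 depletion, 1418 and 1257 with anti-CTLA4 and 492 and 736 in IgG, with a log2 fold change of -3.16 (limma adjusted p = 0.00609, SE 0.25). H2-Eb1 was at 47.8, 64.6 and 38.5 FPKM with CD4 depletion, 486 and 423 with anti-CTLA4 and 179 and 274 in IgG, with a log2 fold change of -3.18 (limma adjusted p = 0.008, SE 0.27). In each of these genes the lowest library labelled anti-CTLA4 was above the highest IgG library, and the highest CD4 depletion library was below the lowest IgG library. After scaling to the homeostatic list, their log2 fold changes were -2.71, -2.32 and -2.34, all still past the threshold.

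The editing proteins of the class II pathway fell by less. H2-DMa was at 53.1, 62.4 and 59.8 FPKM against 190.1 and 195, with a log2 fold change of -1.70 (limma adjusted p = 0.00876, SE 0.15), and H2-DMb1 at 25.7, 28 and 26.7 FPKM against 90.3 and 101, with a log2 fold change of -1.79 (limma adjusted p = 0.00585, SE 0.14). Under the homeostatic scaling H2-DMa had -0.87 and did not pass, whereas H2-DMb1 had -0.97 and did. H2-Oa, the alpha chain of H2-O, taken up here after its values were seen because its promoter is shown, was at 7.25, 14.4 and 12 FPKM against 58.6 and 85.9 with anti-CTLA4 and 24.1 and 24.1 in IgG, with a log2 fold change of -2.60 (limma adjusted p = 0.0108, SE 0.28). The member that did not pass was H2-DMb2, also named after its values were seen, at 5.23, 1.99 and 2.01 FPKM against 4.75 and 6.85, and H2-Eb2 was below the filter.

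Ciita fell with the class II chains, and the factors that bind the promoter moved in both directions. Ciita stood at 0.768, 1.92 and 0.184 FPKM with CD4 depletion, 4.15 and 4.4 with anti-CTLA4 and 5.04 and 3.4 in IgG, a log2 fold change of -1.53 (limma adjusted p = 0.0239, SE 0.37). The highest CD4 depletion library was below the lowest of the other groups, and IgG was at the level of anti-CTLA4. Of the 8 class II transcription factors, 1 fell and 2 rose, against 6.86% lower and 23.7% higher over all genes. The share of risers was thus near that of all genes. The median was -0.12, which turned to 0.57 under the homeostatic scaling. The risers were Rfxap, a subunit of the RFX complex, at 12, 15 and 13.7 FPKM against 7.78 and 7.82 with a log2 fold change of 0.73 (limma adjusted p = 0.0163, SE 0.15), and Nfyb, a subunit of NF-Y, at 8.67, 11.6 and 12.4 FPKM against 5.92 and 5.34 with a log2 fold change of 0.83 (limma adjusted p = 0.0203, SE 0.19). Nfya, another NF-Y subunit, was lower in every CD4 depletion library, at 1.4, 2.21 and 1.83 FPKM against 2.47 and 2.91, and did not pass as deposited, with a log2 fold change of -0.40 (limma adjusted p = 0.142, SE 0.19). With median-of-ratios scaling it passed as lower, at -0.62 (limma adjusted p = 0.038), which made 2 of 8 lower and 2 higher, and under the homeostatic scaling it was at 0.16.

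Among genes that process antigen for class II, 4 of 7 fell and 0 rose, with a median of -1.0 that shrank to -0.16 with 0 genes lower under the homeostatic scaling. Ctss, the cathepsin that trims the invariant chain, stood at 2121, 1529.7 and 1934 FPKM against 4521 and 4926, with a log2 fold change of -1.35 (limma adjusted p = 0.0284, SE 0.35). Lgmn, an endosomal asparaginyl endopeptidase, stood at 511, 472 and 538 FPKM against 976 and 1053, with a log2 fold change of -1.0 (limma adjusted p = 0.0178, SE 0.21). March1, a ligase that removes class II from the cell surface, stood at 14.9, 10.1 and 9.38 FPKM against 17.2 and 24.8, with a log2 fold change of -0.83 (limma adjusted p = 0.0374, SE 0.24). IgG libraries were at or below the level of CD4 depletion for Ctss and Lgmn, with 1496 and 2119 FPKM for Ctss and 383 and 469 for Lgmn, unlike the class II chains, where IgG was in between.

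**Figure D2:**
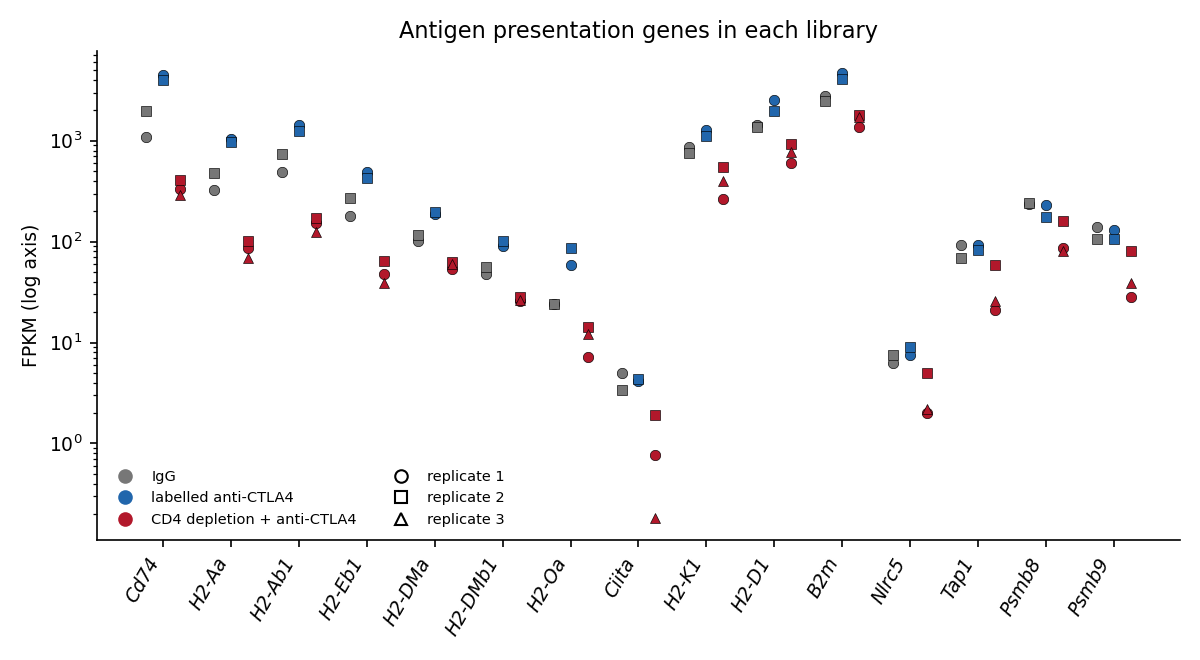
FPKM on a log axis for 15 antigen presentation genes, with 1 point per library, colour for the group and shape for the replicate. For the class II chains from Cd74 to H2-Oa, the libraries labelled anti-CTLA4 are highest, IgG is in between and CD4 depletion is lowest, while for Ciita and from Tap1 to Psmb9 the IgG libraries are close to the libraries labelled anti-CTLA4.

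MHC class I molecules display peptides from the cytosol to CD8 T cells, and their coactivator is Nlrc5. Of the 14 tested class I genes, B2m and Nlrc5 included, 11 fell and 0 rose, with a median of -1.49 (4 lower and -0.64 under the homeostatic scaling). H2-K1, a classical chain, stood at 266, 544 and 398 FPKM with CD4 depletion, 1269 and 1103 with anti-CTLA4 and 867 and 748 in IgG, with a log2 fold change of -1.61 (limma adjusted p = 0.0162, SE 0.32). B2m, the shared light chain, stood at 1355, 1797 and 1703 FPKM with CD4 depletion, 4693 and 4097 with anti-CTLA4 and 2746 and 2462 in IgG, with a log2 fold change of -1.45 (limma adjusted p = 0.0211, SE 0.33). In both genes the groups did not overlap and IgG lay in between.

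Some other class I genes had larger log2 fold changes than H2-K1 and B2m. H2-T23, which encodes Qa-1, the ligand of the inhibitory receptor NKG2A, stood at 76.9, 108 and 83.8 FPKM against 398 and 367, with a log2 fold change of -2.09 (limma adjusted p = 0.00896, SE 0.19). H2-Q6 was at 11.7, 38 and 18.9 FPKM against 102 and 112, with a log2 fold change of -2.33 (limma adjusted p = 0.0145, SE 0.43), and H2-M3, which presents formylated peptides, at 17.8, 32.4 and 22.4 FPKM against 73.7 and 90.2, with a log2 fold change of -1.75 (limma adjusted p = 0.0119, SE 0.25). These 3 passed under the homeostatic scaling too, with -1.26, -1.51 and -0.93. H2-K1, B2m and Nlrc5 did not, with -0.77, -0.61 and -0.56. Nlrc5 was at 1.99, 4.99 and 2.22 FPKM against 7.51 and 8.94 with anti-CTLA4 and 6.22 and 7.5 in IgG, with a log2 fold change of -1.25 (limma adjusted p = 0.0259, SE 0.31). Class I genes are near-identical copies of each other and can share reads, so the split between members is uncertain. H2-D1, at 609, 936 and 780.1 FPKM against 2529 and 1973, is one such gene.

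As deposited, no immunoproteasome gene rose and no constitutive proteasome gene fell. The constitutive core is replaced in part by Psmb8, Psmb9 and Psmb10 when cells respond to interferon-gamma, and the resulting peptides are moved into the endoplasmic reticulum by Tap1 and Tap2 and loaded with the help of Tapbp. Of 13 immunoproteasome and loading genes, 7 fell and 0 rose, with a median of -0.77 that became 0.02 with 0 lower and 1 higher under the homeostatic scaling. Of 14 constitutive core subunits, 0 fell and 10 rose, with a median of 0.68; with median-of-ratios scaling 0 passed and the median was 0.39. The median of the constitutive list was above that of the immunoproteasome list under each scaling, while the side of 0 on which the immunoproteasome list lies depends on the scaling.

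Tap1 stood at 21.2, 58.5 and 25.9 FPKM with CD4 depletion, 93.5 and 81.8 with anti-CTLA4 and 93.6 and 69 in IgG, with a log2 fold change of -1.43 (limma adjusted p = 0.0345, SE 0.40). Psmb9 stood at 28.6, 80.4 and 39 FPKM with CD4 depletion, 129 and 106 with anti-CTLA4 and 138 and 106 in IgG, with a log2 fold change of -1.36 (limma adjusted p = 0.0392, SE 0.40). In both genes replicate 2 of CD4 depletion was well above replicates 1 and 3, though below anti-CTLA4. Tapbp, with 76.4, 97 and 77.8 FPKM against 190.3 and 199, had a log2 fold change of -1.22 (limma adjusted p = 0.0113, SE 0.16), and Tapbpl, a related editor of class I peptides, had a log2 fold change of -1.19 (limma adjusted p = 0.0117, SE 0.16). Psmb8 did not pass, at 87.2, 159 and 80.7 FPKM against 231 and 174, with a log2 fold change of -0.94 (limma adjusted p = 0.0525, SE 0.31). Psme1, a subunit of the proteasome activator, had a log2 fold change of -0.73 (limma adjusted p = 0.0194, SE 0.16) and was at 0.10 under the homeostatic scaling. On the constitutive side, Psmb4 stood at 121, 145 and 144 FPKM against 86.9 and 51.9, with a log2 fold change of 1.01 (limma adjusted p = 0.021, SE 0.23), and Psmb7, the subunit that Psmb10 replaces, at 71.9, 78.3 and 78.8 FPKM against 51.4 and 39.1, with a log2 fold change of 0.75 (limma adjusted p = 0.0209, SE 0.17).

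**Figure D3:**
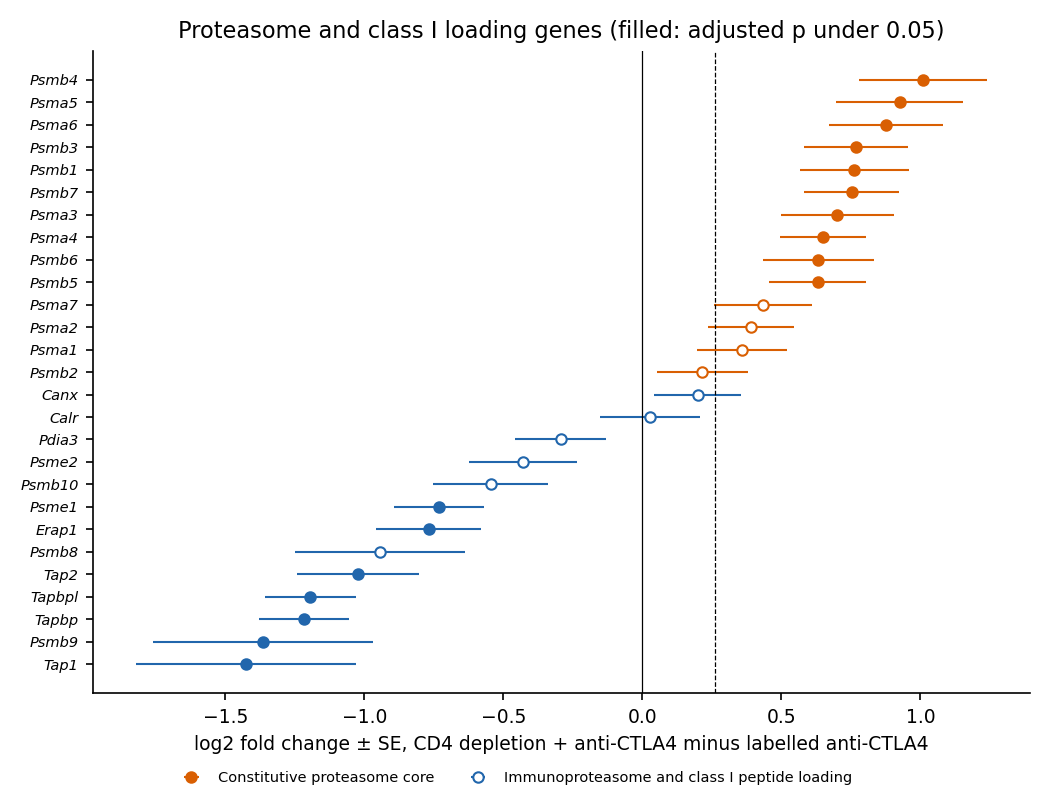
Log2 fold change of CD4 depletion + anti-CTLA4 minus the libraries labelled anti-CTLA4 on the x axis, with its SE as bars, for 14 constitutive proteasome subunits and 13 immunoproteasome and class I loading genes; filled points passed limma at an adjusted p of 0.05 and the dashed line is the median of all genes, 0.26. All 14 constitutive subunits lie to the right of 0 (Psmb2 to the left with median-of-ratios scaling) and all immunoproteasome and loading genes except Canx and Calr to the left, as deposited; with scaling to the homeostatic list the median of the second list is 0.02.

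Genes of interferon reception and signalling, not of interferon-gamma alone, were lower in part as deposited. Of 18 interferon receptor, JAK-STAT and IRF genes, 10 fell and 0 rose, with a median of -0.71 that turned to 0.08 under the homeostatic scaling, where 1 was lower and 1 higher. Irf1, a transcription factor that interferon-gamma induces, stood at 27, 72.1 and 31.1 FPKM with CD4 depletion, 108 and 120 with anti-CTLA4 and 103 and 81.1 in IgG, with a log2 fold change of -1.51 (limma adjusted p = 0.0284, SE 0.39). Replicate 2 of CD4 depletion was the highest of its group, and IgG was close to anti-CTLA4.

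Other signalling genes had tighter replicates. Irf8, a factor of microglial development, stood at 66, 94.4 and 78.3 FPKM against 172 and 189.6, with a log2 fold change of -1.19 (limma adjusted p = 0.0122, SE 0.18). Stat2, which acts with type I interferon, stood at 12.4, 9.18 and 9.4 FPKM against 29.2 and 28.1 with anti-CTLA4 and 11.4 and 12 in IgG, with a log2 fold change of -1.40 (limma adjusted p = 0.0113, SE 0.16). Ifngr1 had a log2 fold change of -0.76 (limma adjusted p = 0.0295, SE 0.20) and Ifngr2, the second receptor chain, -0.75 (limma adjusted p = 0.0327, SE 0.20), but both were at 0.08 under the homeostatic scaling. Ifng, the cytokine itself, was below the filter at 0.015, 0.114 and 0.124 FPKM with CD4 depletion, 0.151 and 1.08 with anti-CTLA4 and 0.383 and 0.118 in IgG, or 1.9, 12 and 14.0 reads, 17.0 and 117.0 reads, and 39.0 and 12 reads. Replicate 2 of anti-CTLA4 stood above all the others.

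Guanylate-binding proteins are large GTPases that interferon-gamma induces against intracellular microbes. Of 9 tested members, 5 fell and 0 rose, with a median of -1.72 (3 lower and -0.98 under the homeostatic scaling). Gbp8 stood at 0.479, 1.51 and 1.05 FPKM with CD4 depletion, 8.63 and 8.17 with anti-CTLA4 and 2.69 and 2.62 in IgG, with a log2 fold change of -2.26 (limma adjusted p = 0.0108, SE 0.24). Gbp5, a promoter of inflammasome assembly, stood at 4.96, 9.53 and 5.33 FPKM with CD4 depletion, 26.3 and 27 with anti-CTLA4 and 12.1 and 10.4 in IgG, with a log2 fold change of -1.91 (limma adjusted p = 0.0115, SE 0.25). The groups did not overlap in either gene, and IgG lay in between. Gbp10 stood at 0, 1.21 and 0.57 FPKM against 3.13 and 5.06, with a log2 fold change of -1.72 (limma adjusted p = 0.0231, SE 0.41). Members of this family are similar in sequence and can share reads.

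The immunity-related GTPases, also interferon-gamma targets, differed widely among the CD4 depletion libraries. Of 8, 1 fell and 0 rose, with a median of -1.33. Without replicate 2 of CD4 depletion 7 fell, with a median of -1.93. Iigp1 fell, at 2.57, 28.8 and 7.2 FPKM against 52.8 and 55.8 with anti-CTLA4 and 56.6 and 29.3 in IgG, with a log2 fold change of -2.53 (limma adjusted p = 0.0456, SE 0.78). Tgtp2 did not pass, at 1.57, 16 and 4.87 FPKM against 18.4 and 19.3. In both genes replicate 2 was more than 3 times the level of replicate 3.

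Type I interferon stimulated genes, which serve mainly antiviral defence, were lower in 16 of 30 and higher in 0, with a median of -0.97 (-0.24 with 0 lower and 1 higher under the homeostatic scaling). Bst2, which tethers budding virions, stood at 89.1, 77.3 and 89.2 FPKM against 229.7 and 181 with anti-CTLA4 and 73.4 and 91.6 in IgG, with a log2 fold change of -1.25 (limma adjusted p = 0.0119, SE 0.18). Rtp4 stood at 32, 16.1 and 18.9 FPKM against 62.3 and 58.3 with anti-CTLA4 and 21.8 and 25.3 in IgG, with a log2 fold change of -1.45 (limma adjusted p = 0.0145, SE 0.27), and Ddx58, the RNA sensor RIG-I, at 6.62, 5.74 and 5.3 FPKM against 11.3 and 11.5 with anti-CTLA4 and 6.37 and 5.12 in IgG, with a log2 fold change of -0.85 (limma adjusted p = 0.0155, SE 0.16). For these 3 genes IgG was at the level of CD4 depletion, in contrast to Irf1 and Tap1, where it was close to anti-CTLA4. Neither contrast with IgG was tested.

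Chemokines that attract T cells through CXCR3, CXCR6 and other receptors included some of the largest changes. Of 8, 3 fell and 0 rose, with a median of -1.87 (3 lower and -1.21 under the homeostatic scaling). Cxcl9, a CXCR3 ligand that depends on interferon-gamma, stood at 0.51, 4.31 and 2.14 FPKM with CD4 depletion, 29.9 and 23.1 with anti-CTLA4 and 4.89 and 8.36 in IgG, with a log2 fold change of -3.22 (limma adjusted p = 0.0122, SE 0.49). Cxcl11 stood at 0.324, 0.361 and 0.506 FPKM with CD4 depletion, 2.62 and 2.49 with anti-CTLA4 and 0.592 and 0.602 in IgG, and it is 1 of the 3, but it passed the filter only through the libraries labelled anti-CTLA4 and so had to be higher there. C57BL/6 mice are known to carry a Cxcl11 allele that yields no functional protein, so this is a measure of transcript only. Ccl5 stood at 26.1, 15.6 and 42.9 FPKM with CD4 depletion, 219 and 116 with anti-CTLA4 and 18.4 and 28.4 in IgG, with a log2 fold change of -2.57 (limma adjusted p = 0.0134, SE 0.44). The groups were apart in Cxcl9 and Ccl5, while in Cxcl11 the filter alone set them apart.

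Cxcl10, the remaining CXCR3 ligand, did not follow. It stood at 53.6, 140 and 79.7 FPKM against 146 and 87.5, with overlapping groups and a log2 fold change of -0.42 (limma adjusted p = 0.481, SE 0.44), which turned to 0.41 under the homeostatic scaling. Cxcl16, the CXCR6 ligand, stood at 32.6, 14.1 and 31.1 FPKM against 67.4 and 49.7 and did not pass, with a log2 fold change of -1.22 (limma adjusted p = 0.065, SE 0.43). Of 5 chemokines that attract monocytes, 0 passed by limma and 1 had an unadjusted p under 0.05, with a median of -1.37. Ccl2 stood at 152, 37.2 and 50.7 FPKM against 200 and 119 and Ccl7 at 37.2, 5.33 and 10.6 FPKM against 88.5 and 32.1. In both, replicate 1 of CD4 depletion, the library with the monocyte genes, was the highest of its group and overlapped anti-CTLA4, and without it both were lower, with log2 fold changes of -1.81 and -2.67 (limma adjusted p = 0.0107 and 0.0247).

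Of 13 cytokines read by T cells and their inhibitors, 6 fell and 0 rose, with a median of -1.01 (2 lower and -0.29 under the homeostatic scaling). Il18bp, a soluble inhibitor of interleukin 18 that interferon-gamma induces, stood at 4.6, 9.35 and 6.61 FPKM with CD4 depletion, 43.6 and 34.6 with anti-CTLA4 and 13.4 and 16.2 in IgG, with a log2 fold change of -2.39 (limma adjusted p = 0.0108, SE 0.26). Il27, whose product pairs with Ebi3 to form interleukin 27, stood at 1.22, 1.39 and 1.04 FPKM with CD4 depletion, 6.28 and 5.28 with anti-CTLA4 and 0.389 and 0.493 in IgG, with a log2 fold change of -1.61 (limma adjusted p = 0.0108, SE 0.18). Ebi3 stood at 7.76, 8.89 and 12.8 FPKM with CD4 depletion, 20.3 and 20.3 with anti-CTLA4 and 7.9 and 7.31 in IgG, with a log2 fold change of -1.01 (limma adjusted p = 0.0169, SE 0.21). Both subunits of the cytokine were thus lower, with IgG at or below the level of CD4 depletion. Il15, a survival factor of NK and memory CD8 T cells, had a log2 fold change of -0.99 (limma adjusted p = 0.0184, SE 0.21).

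Co-stimulatory and checkpoint ligands fell in 9 of 17, and 1 rose, with a median of -0.88 (-0.05, 1 lower and 3 higher under the homeostatic scaling). Cd86, which CD28 and CTLA4 both bind, stood at 40.5, 37.3 and 40.7 FPKM with CD4 depletion, 82.3 and 101 with anti-CTLA4 and 35.1 and 34.1 in IgG, with a log2 fold change of -1.18 (limma adjusted p = 0.0113, SE 0.14). Cd274, the ligand PD-L1, stood at 9.22, 5.68 and 4.83 FPKM with CD4 depletion, 19.2 and 15.8 with anti-CTLA4 and 8.6 and 9.44 in IgG, with a log2 fold change of -1.33 (limma adjusted p = 0.0149, SE 0.25). Slamf8, a macrophage receptor of the SLAM family, stood at 3.25, 7.32 and 6.87 FPKM with CD4 depletion, 38.7 and 37.3 with anti-CTLA4 and 8.11 and 13 in IgG, with a log2 fold change of -2.58 (limma adjusted p = 0.0113, SE 0.32). IgG was close to CD4 depletion in Cd86 and Cd274. Slamf8 passed under the homeostatic scaling as well, with -1.80, whereas Cd86 and Cd274 had -0.35 and -0.55 and did not. The riser was Cd276, the ligand B7-H3, which many tumour cells carry, at 21.3, 27 and 26.7 FPKM against 8.08 and 6.37 with anti-CTLA4 and 25.8 and 25.6 in IgG, with a log2 fold change of 1.66 (limma adjusted p = 0.0108, SE 0.17). Cd40 did not pass, at 4.53, 2.2 and 2.03 FPKM against 8.8 and 5.52.

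Microglia clear dead cells and debris through TAM receptors, Fc receptors, complement and the Trem family. Of 8 TAM receptors and bridging ligands, 3 fell and 2 rose, against 6.86% lower and 23.7% higher over all genes. The share of risers was thus near that of all genes. The median of this list was -0.63, which turned to 0.20 under the homeostatic scaling. Mertk, a receptor for dead cells, stood at 35.8, 46.3 and 43.2 FPKM with CD4 depletion and 72.6 and 113 with anti-CTLA4, with a log2 fold change of -1.11 (limma adjusted p = 0.0155, SE 0.21). Axl, the related receptor, overlapped, at 51.5, 23.6 and 34.7 FPKM against 67.9 and 39, with a log2 fold change of -0.55 (limma adjusted p = 0.256, SE 0.35) and with 0.27 under the homeostatic scaling. Mfge8, a secreted bridge to phosphatidylserine, rose from 25.2 and 24.7 to 70, 53.1 and 58.3 FPKM, with a log2 fold change of 1.23 (limma adjusted p = 0.0123, SE 0.20). Pros1, the ligand of Mertk, fell with a log2 fold change of -0.71 (limma adjusted p = 0.0203, SE 0.16) but was at 0.12 under the homeostatic scaling.

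Complement genes fell in 9 of 17 and rose in 0, with a median of -1.08 (-0.24 with 2 lower under the homeostatic scaling). C3, the central component, stood at 10.6, 3.9 and 4.37 FPKM with CD4 depletion, 35.6 and 27.1 with anti-CTLA4 and 9.85 and 14.9 in IgG, with a log2 fold change of -2.25 (limma adjusted p = 0.0132, SE 0.38). C4b stood at 32.1, 20.3 and 22.3 FPKM with CD4 depletion, 115 and 76.4 with anti-CTLA4 and 34 and 42.3 in IgG, with a log2 fold change of -1.90 (limma adjusted p = 0.0116, SE 0.25). The groups did not overlap in either gene. C2 had a log2 fold change of -2.11 (limma adjusted p = 0.0153, SE 0.41), and with C3 it made up the 2 members past the threshold under the homeostatic scaling, at -1.45 and -1.45.

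Of 17 Trem, Siglec and CD300 receptors, 6 fell and 0 rose, with a median of -0.85 (-0.03 and 0 lower under the homeostatic scaling). Trem2, the lipid receptor of disease-associated microglia, stood at 189, 275 and 278 FPKM with CD4 depletion, 552 and 572 with anti-CTLA4 and 209 and 217 in IgG, with a log2 fold change of -1.20 (limma adjusted p = 0.0144, SE 0.22). Cd300a, an inhibitory receptor for phospholipids, stood at 7.28, 10.8 and 10.6 FPKM against 25 and 26.1, with a log2 fold change of -1.35 (limma adjusted p = 0.0119, SE 0.19), and Cd33, an inhibitory Siglec, at 29.1, 32.9 and 26.2 FPKM against 51.4 and 68.6, with a log2 fold change of -1.0 (limma adjusted p = 0.0135, SE 0.17). Of 9 Fc receptor and signalling genes, 5 fell and 0 rose, with a median of -0.91 (-0.08 and 0 lower under the homeostatic scaling). Fcgr1, the high-affinity IgG receptor, stood at 60.1, 33.2 and 34.2 FPKM against 96.1 and 89.2, with a log2 fold change of -1.16 (limma adjusted p = 0.0221, SE 0.27). Lyn, a kinase of these receptors, fell with a log2 fold change of -0.81 (limma adjusted p = 0.0216, SE 0.19) but was at 0.02 under the homeostatic scaling.

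Lysosomal genes fell in 16 of 36 and rose in 0, with a median of -0.58 that turned to 0.24 under the homeostatic scaling, where 0 were lower and 1 higher. Hexa, which degrades gangliosides, stood at 158, 167 and 205 FPKM against 393 and 329, with a log2 fold change of -1.03 (limma adjusted p = 0.0144, SE 0.19), and Ctsd, the aspartic cathepsin, at 2683, 2241 and 3069 FPKM against 6088 and 5439, with a log2 fold change of -1.12 (limma adjusted p = 0.0488, SE 0.35). Of 14 Toll-like receptor genes, 5 fell and 0 rose, with a median of -0.76 that turned to 0.02 under the homeostatic scaling. Cd180, a homologue of Tlr4 that dampens its response, stood at 8.25, 11.2 and 12.9 FPKM against 32.3 and 39.4 with anti-CTLA4 and 9.58 and 12.6 in IgG, with a log2 fold change of -1.66 (limma adjusted p = 0.0113, SE 0.22), and it passed under the homeostatic scaling as well, at -0.86. Its partner Ly86, known as MD-1, stood at 372, 298 and 436 FPKM against 912 and 813, with a log2 fold change of -1.24 (limma adjusted p = 0.0159, SE 0.24).

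Inflammatory genes outside the interferon lists were lower in part. Of 12 phagocyte oxidase and antimicrobial genes, 4 fell and 0 rose, with a median of -0.72 that turned to 0.11 under the homeostatic scaling. Mpeg1, the pore-forming perforin-2, stood at 111, 87.3 and 101 FPKM against 295 and 255 with anti-CTLA4 and 85.8 and 105 in IgG, with a log2 fold change of -1.45 (limma adjusted p = 0.0113, SE 0.18). Acod1, which makes itaconate, stood at 5.71, 0.698 and 1.84 FPKM against 12.9 and 8.68 with anti-CTLA4 and 0.431 and 2.15 in IgG, with a log2 fold change of -1.86 (limma adjusted p = 0.0482, SE 0.58). Of 14 NF-kB subunits and inhibitors, 3 fell and 0 rose, with a median of -0.44 that turned to 0.24 under that scaling, and Tnfaip3, the inhibitor A20, stood at 24.5, 13.8 and 11.7 FPKM against 42.2 and 43.9, with a log2 fold change of -1.39 (limma adjusted p = 0.0296, SE 0.36). Immediate early and stress genes, which respond to tissue dissociation, fell in 6 of 26 and rose in 0, with a median of -0.95. Their sums were 4533 and 5168 FPKM with anti-CTLA4, 3201, 2322 and 2437 with CD4 depletion and 945 and 2989.9 in IgG, and the part of dissociation in the lower groups was not tested.

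Some of the microglial identity genes were lower as deposited. Of 29 homeostatic genes, 11 fell, 0 rose and 18 did not pass, with a median of -0.89, which was -0.56 without replicate 2 of anti-CTLA4. P2ry12, a purinergic receptor, stood at 147, 585 and 403 FPKM with CD4 depletion, 476 and 1088 with anti-CTLA4 and 522 and 327 in IgG, and Tmem119 at 243, 505 and 481 FPKM with CD4 depletion, 548 and 1001 with anti-CTLA4 and 467 and 368 in IgG. Cx3cr1, which the sort used, stood at 211, 391 and 323 FPKM with CD4 depletion, 444 and 752 with anti-CTLA4 and 334 and 259.9 in IgG. None of these 3 passed, with limma adjusted p = 0.185, 0.113 and 0.069, and in each the lowest library was replicate 1 of CD4 depletion and the highest was replicate 2 of anti-CTLA4. Siglech, a Siglec of microglia and plasmacytoid dendritic cells, fell, at 78.6, 174 and 145 FPKM against 259 and 376, with a log2 fold change of -1.31 (limma adjusted p = 0.0299, SE 0.34).

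Of 30 disease-associated microglial genes, 5 fell and 2 rose, against 6.86% lower and 23.7% higher over all genes. The share of risers was thus below that of all genes. The median of this list was -0.55, which turned to 0.25 under the homeostatic scaling. Apoe, the lipid carrier, ranged widely in every group, at 4162, 604 and 2247 FPKM with CD4 depletion, 4417 and 1368 with anti-CTLA4 and 365 and 1246 in IgG, and did not pass, with a log2 fold change of -0.46 (limma adjusted p = 0.72, SE 0.93). The largest riser of this list was Ank, a transporter of pyrophosphate, at 82, 56.9 and 60.4 FPKM against 14.2 and 7.09 with anti-CTLA4 and 148 and 45.5 in IgG, with a log2 fold change of 2.59 (limma adjusted p = 0.0149, SE 0.49). Itgax, known as CD11c, stood at 5.2, 1.88 and 5.99 FPKM against 11.6 and 10.4 and did not pass, with a log2 fold change of -1.26 (limma adjusted p = 0.073, SE 0.46).

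Markers of other cells showed what else the libraries held. Of 16 tested monocyte and recruited macrophage genes, 0 fell and 1 rose, with a median of 1.19 that was -0.37 without replicate 1 of CD4 depletion. In that library Arg1, an enzyme of recruited macrophages, stood at 423 FPKM, against 2.59 and 17.4 in replicates 2 and 3 and 13.6 and 1.92 with anti-CTLA4. Ly6c2, a monocyte surface gene, stood at 35, 1.46 and 2.73 FPKM against 8.43 and 3.38. The class II, class I and guanylate-binding protein medians without that library were -2.34, -1.34 and -1.25, against -2.60, -1.49 and -1.72 with it.

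Lymphocyte markers were low in all libraries. The T cell list summed to 6.15, 8.35 and 7.87 FPKM with CD4 depletion, 11 and 12 with anti-CTLA4 and 7.43 and 6.33 in IgG, and 3 of its 16 genes with a row were tested, of which Cd3g, a chain of the T cell receptor complex, was called lower, at 0.33, 0.506 and 0.368 FPKM against 1.19 and 1.02. Cd3g passed the filter only through both libraries labelled anti-CTLA4, so it had to be higher there and its call supports nothing. Foxp3, the factor of regulatory T cells, stood at 2.38, 2.35 and 3.02 FPKM against 3.08 and 3.4 and did not pass, with a log2 fold change of -0.25 (limma adjusted p = 0.305, SE 0.18). The NK cell list summed to 5.04, 6.09 and 3.63 FPKM with CD4 depletion, 6.36 and 11.7 with anti-CTLA4 and 3.96 and 3.02 in IgG, and 0 of its 3 tested genes passed by limma, 0 also at an unadjusted p under 0.05. Both tested B cell genes fell, among them Cd79b, a chain of the B cell receptor, at 7.44, 8.06 and 7.04 FPKM against 19.5 and 21.3 with anti-CTLA4 and 6.97 and 8.11 in IgG, with a log2 fold change of -1.33 (limma adjusted p = 0.0108, SE 0.15). The dendritic cell list had 2 of 9 lower and 1 higher, with a median of -0.51 that was 0.01 under the homeostatic scaling. It summed to 186, 300 and 239 FPKM against 361 and 481. Its largest fall, at -1.31, was that of Siglech, which is also on the homeostatic list. The difference between these sums lay in Siglech, and the sums of the other members overlapped between the groups. No listed marker of these types that had a row was at 0 in all 5 libraries. A row was present for 16 of the 19 listed T cell genes and 6 of the 8 listed B cell genes. The part of these cell types in the class II result was not tested.

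**Figure D4:**
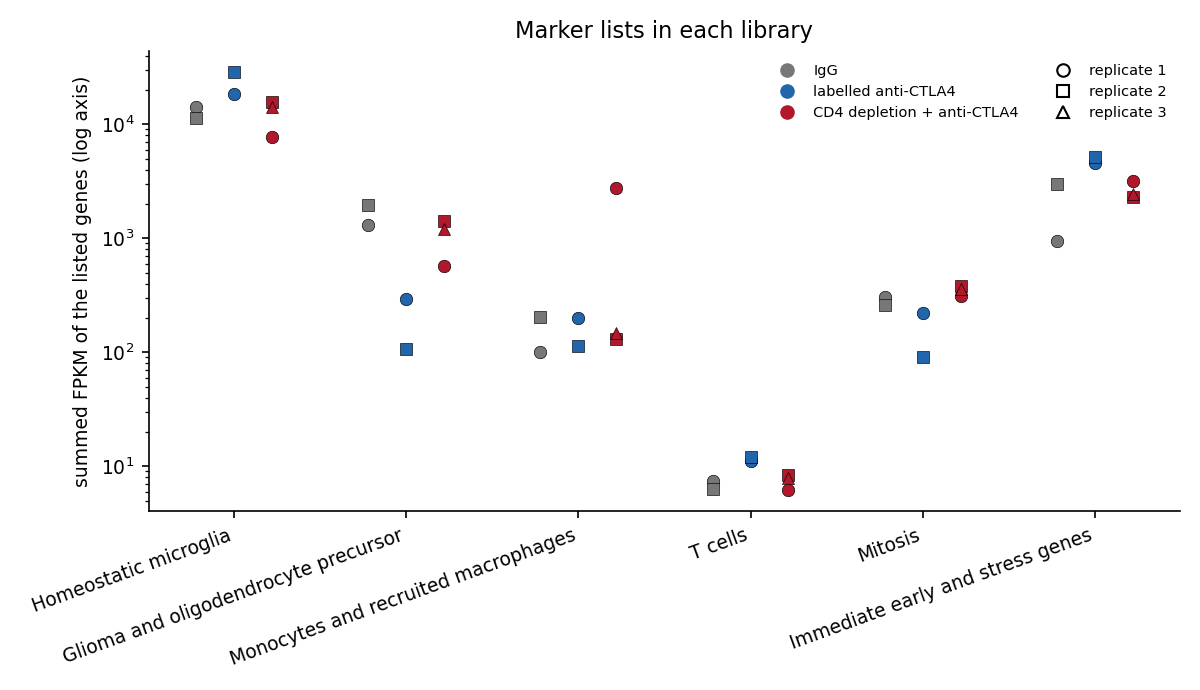
Summed FPKM of the listed genes on a log axis for 6 marker lists, with 1 point per library, colour for the group and shape for the replicate. The libraries labelled anti-CTLA4 have the highest homeostatic and T cell sums and the lowest glioma-lineage sums, and replicate 1 of CD4 depletion stands at 2761 FPKM for the monocyte list.

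Several vessel-wall and fibroblast genes were among the largest that fell. Vtn, a matrix glycoprotein made by pericytes in brain, stood at 0.996, 11.8 and 7.14 FPKM with CD4 depletion, 87.3 and 39.4 with anti-CTLA4 and 4.35 and 2.97 in IgG, with a log2 fold change of -3.33 (limma adjusted p = 0.0198, SE 0.74). Col1a2, a chain of type I collagen, stood at 6.03, 5.65 and 1.41 FPKM with CD4 depletion, 42.1 and 21.5 with anti-CTLA4 and 2.15 and 1.5 in IgG, with a log2 fold change of -2.69 (limma adjusted p = 0.0144, SE 0.50). Dcn, a proteoglycan of fibroblasts, stood at 28.7, 23.4 and 8.47 FPKM with CD4 depletion, 137 and 73.7 with anti-CTLA4 and 3.61 and 7.33 in IgG, with a log2 fold change of -2.42 (limma adjusted p = 0.0193, SE 0.53). Aldh1a2, an enzyme that makes retinoic acid, stood at 0.418, 4.62 and 0.725 FPKM with CD4 depletion, 27.4 and 13 with anti-CTLA4 and 0.342 and 1.38 in IgG, with a log2 fold change of -3.06 (limma adjusted p = 0.0164, SE 0.62). In these genes both libraries labelled anti-CTLA4 were above all other libraries, and replicate 1 was the higher of the pair.

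As lists, fibroblast matrix genes fell in 5 of 14 and rose in 1, with a median of -0.96. Endothelial and pericyte genes fell in 5 of 14 and rose in 1, with a median of -0.30 that turned to 0.31 under the homeostatic scaling. Of these 14 endothelial and pericyte genes, 1 passed the filter only through CD4 depletion libraries. Ly6a, an interferon-inducible surface protein that endothelial cells also carry, stood at 25.5, 23.4 and 27.7 FPKM against 122 and 103 with anti-CTLA4 and 30.1 and 36.7 in IgG, with a log2 fold change of -2.10 (limma adjusted p = 0.00585, SE 0.16). Other genes of the largest falls were Serpina3f, a serine protease inhibitor, with a log2 fold change of -2.63 (limma adjusted p = 0.0128, SE 0.43), and Ly6i, of the same family as Ly6a, with a log2 fold change of -2.63 (limma adjusted p = 0.0123, SE 0.42). Erythroid genes, a sign of blood in the sample, had 0 of 6 past the threshold by limma, 3 at an unadjusted p under 0.05 and a median of -1.69, and Hbb-bs, a beta globin, stood at 76.4, 263 and 102 FPKM against 499 and 432 with anti-CTLA4 and 149 and 23.4 in IgG. Myelin genes fell in 2 of 11 with a median of -0.57 that turned to 0.09 under that scaling. The part of these cells in the result was not tested.

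Genes of the glioma lineage rose in 19 of 23, and 0 fell, with a median of 1.99. Of the 23, 4 passed the filter only through CD4 depletion libraries and so had to be higher there, as did 405 of the 2997 genes called higher in all. Without replicate 2 of CD4 depletion 6 of the list passed, and without replicate 3 likewise 6. Glioma-005 cells resemble neural and oligodendrocyte precursors, so the list cannot separate tumour from precursor cells. Gpr37l1, a receptor of glial cells, stood at 28.1, 83.3 and 107 FPKM with CD4 depletion, 8.37 and 4.29 with anti-CTLA4 and 112 and 124 in IgG, with a log2 fold change of 3.19 (limma adjusted p = 0.0128, SE 0.53). Olig2, a transcription factor of that lineage, stood at 14.8, 54.8 and 38 FPKM with CD4 depletion, 10.5 and 3.82 with anti-CTLA4 and 54.5 and 87 in IgG, with a log2 fold change of 2.13 (limma adjusted p = 0.0317, SE 0.57). Lhfpl3 stood at 6.83, 19.6 and 16 FPKM with CD4 depletion, 2.27 and 1.23 with anti-CTLA4 and 38.3 and 50.8 in IgG, with a log2 fold change of 2.37 (limma adjusted p = 0.0135, SE 0.41). In each gene the libraries labelled anti-CTLA4 were lowest, and replicate 1 was the lowest of the CD4 depletion group and below both IgG libraries. Pdgfra did not pass, at 7.84, 4.28 and 3.12 FPKM against 4.89 and 2.1. Astrocyte genes rose in 3 of 13 and fell in 1, a share of risers near the 23.7% of all genes. Of the 13, 2 passed the filter only through CD4 depletion libraries. Gfap stood at 69.4, 56.9 and 114 FPKM against 30 and 11.5, with a log2 fold change of 1.98 (limma adjusted p = 0.0269, SE 0.50).

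The largest risers outside that list included transcripts not typical of microglia. Nptx1, a neuronal pentraxin, stood at 7.58, 26.8 and 31.9 FPKM against 1.41 and 0.261 with anti-CTLA4 and 43.8 and 17.4 in IgG, with a log2 fold change of 3.51 (limma adjusted p = 0.0143, SE 0.64). Cdkn2b, a cell cycle inhibitor, stood at 36.8, 49.4 and 40.1 FPKM against 9.54 and 2.68 with anti-CTLA4 and 63.3 and 44.4 in IgG, with a log2 fold change of 2.78 (limma adjusted p = 0.0119, SE 0.41). Dusp4, a phosphatase of MAP kinases, stood at 20.1, 32.6 and 34.6 FPKM against 4.94 and 1.58 with anti-CTLA4 and 39 and 25.5 in IgG, with a log2 fold change of 2.91 (limma adjusted p = 0.0117, SE 0.40). IgG lay with CD4 depletion in these 3 genes. Meox1, a homeobox factor, was at 38.7, 13.7 and 11.5 FPKM, above 1.71 and 0.498 with anti-CTLA4 and 2.33 and 3.4 in IgG, and highest in replicate 1, with a log2 fold change of 3.27 (limma adjusted p = 0.0122, SE 0.51). Prss35, Tmem179 and Cd38, an enzyme that consumes NAD, had log2 fold changes of 3.28 (limma adjusted p = 0.0122, SE 0.49), 2.92 (limma adjusted p = 0.0186, SE 0.63) and 2.73 (limma adjusted p = 0.0158, SE 0.53).

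Retinoic acid genes were called in both directions, with 2 of 15 lower and 3 higher, against 6.86% lower and 23.7% higher over all genes. The share of risers was below that of all genes. Of the 15, 1 passed the filter only through CD4 depletion libraries. Aldh1a3 makes the same product as Aldh1a2, and it rose while Aldh1a2 fell, standing at 32, 20.1 and 27.7 FPKM with CD4 depletion, 3.97 and 0.763 with anti-CTLA4 and 38.9 and 20 in IgG, with a log2 fold change of 3.20 (limma adjusted p = 0.0119, SE 0.46). The receptor gene Rarb stood at 9.71, 21.1 and 15.9 FPKM against 3.89 and 1.38, with a log2 fold change of 2.22 (limma adjusted p = 0.0144, SE 0.41). Matrix metalloproteinases and their inhibitors rose in 4 of 13, where 23.7% of all genes rose, and fell in 1, where 6.86% fell. The median was 0.93. Of the 13, 1 passed the filter only through the libraries labelled anti-CTLA4 and 1 only through CD4 depletion libraries. Timp1, an inhibitor, stood at 169, 79.7 and 113 FPKM against 29.5 and 6.36 with anti-CTLA4 and 117 and 32.5 in IgG, with a log2 fold change of 2.95 (limma adjusted p = 0.0245, SE 0.71). Mmp9, a gelatinase, stood at 27.9, 8.78 and 5.46 FPKM against 2.98 and 0.783 with anti-CTLA4 and 1.5 and 1.2 in IgG, with a log2 fold change of 2.20 (limma adjusted p = 0.036, SE 0.62), and was above IgG in every CD4 depletion library and highest in replicate 1, the library with the monocyte genes.

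TGF-beta genes were also called in both directions, with 4 of 14 lower, where 6.86% of all genes were lower, and 2 higher. That share of risers was below the 23.7% of all genes. The list had a median of -0.32 that turned to 0.46 under the homeostatic scaling. The ligand gene Tgfb3 rose, at 8.06, 7.22 and 10.3 FPKM against 2.33 and 1.17, with a log2 fold change of 1.81 (limma adjusted p = 0.0113, SE 0.23), and so did Ltbp3, which holds the latent ligand in the matrix, at 19.2, 20.5 and 28.3 FPKM against 5.14 and 3.4, with a log2 fold change of 2.17 (limma adjusted p = 0.0113, SE 0.29). The receptor gene Tgfbr2, on which microglial identity is known to depend, fell, at 48.7, 65.3 and 59.5 FPKM against 90.4 and 118, with a log2 fold change of -0.84 (limma adjusted p = 0.0238, SE 0.20). Smad7, the pathway's feedback inhibitor, fell too, with a log2 fold change of -1.17 (limma adjusted p = 0.0158, SE 0.23).

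Cell cycle genes rose as a group. Of 22 mitosis genes, 18 rose and 0 fell, with a median of 1.16, and 7 passed with median-of-ratios scaling, at a median of 0.87. Without replicate 2 of anti-CTLA4 the median was 0.63. Of 19 replication licensing and helicase genes, 15 rose and 0 fell, with a median of 1.02, and 11 passed with that scaling, while without replicate 2 or replicate 3 of CD4 depletion 5 passed each time. Ccna2, cyclin A2, stood at 28.9, 40.9 and 32.2 FPKM with CD4 depletion, 15.7 and 6.79 with anti-CTLA4 and 25.5 and 24.5 in IgG, with a log2 fold change of 1.60 (limma adjusted p = 0.0156, SE 0.31). Mcm2, a subunit of the replicative helicase, stood at 27.5, 38.5 and 41.8 FPKM with CD4 depletion, 14.8 and 6.91 with anti-CTLA4 and 35 and 37.6 in IgG, with a log2 fold change of 1.70 (limma adjusted p = 0.014, SE 0.31). Mki67, the proliferation antigen Ki-67, stood at 4.65, 4.38 and 3.88 FPKM with CD4 depletion, 3.08 and 1.55 with anti-CTLA4 and 3.87 and 3.8 in IgG, with a log2 fold change of 0.72 (limma adjusted p = 0.0492, SE 0.23). In all 3 genes replicate 2 of anti-CTLA4 was the lowest library and IgG was nearer to CD4 depletion than to anti-CTLA4. Without replicate 2 of CD4 depletion 1 mitosis gene passed, and without replicate 3 likewise 1. The glioma-lineage list rose beside these lists, and its part in them was not tested.

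Metabolic lists differed in how their share of higher genes compared with the 23.7% of all genes. Sterol synthesis genes rose in 11 of 22 and fell in 0, with a median of 0.78 (5 higher and 1 lower with median-of-ratios scaling, 4 and 3 higher without replicates 2 and 3 of CD4 depletion). Of the 22, 2 passed the filter only through CD4 depletion libraries and so had to be higher there. Srebf2, the factor that drives that pathway, stood at 21.8, 28.2 and 28.4 FPKM against 11.7 and 7.21, with a log2 fold change of 1.40 (limma adjusted p = 0.0122, SE 0.22), and Sqle, squalene epoxidase, at 28.9, 48.5 and 58.5 FPKM against 16.1 and 6.53, with a log2 fold change of 1.97 (limma adjusted p = 0.0161, SE 0.39). Nuclear oxidative phosphorylation genes rose in 16 of 42 and fell in 0, with a median of 0.52, but 2 passed with median-of-ratios scaling, 2 without replicate 2 of CD4 depletion and 1 without replicate 3. Cyc1, cytochrome c1, stood at 103, 126 and 164 FPKM against 66.8 and 54.9, with a log2 fold change of 1.08 (limma adjusted p = 0.0161, SE 0.22). Of 43 ribosomal protein genes, 4 rose and 0 fell, a share below that of all genes, with a median of 0.42. That count rested on single libraries: without replicate 1 of anti-CTLA4 23 rose, with a median of 0.80, and without replicate 2 the median was 0.16 and 0 passed by limma, with 5 at an unadjusted p under 0.05. Among 23 glycolysis and hypoxia genes, 4 rose, also a share below that of all genes, and 1 fell. The isozymes of hexokinase were on opposite sides as deposited, with Hk1 at a log2 fold change of 0.98 (limma adjusted p = 0.027, SE 0.25) and Hk2 at a log2 fold change of -0.77 (limma adjusted p = 0.0208, SE 0.18), though Hk2 was at 0.02 under the homeostatic scaling.

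**Figure D5:**
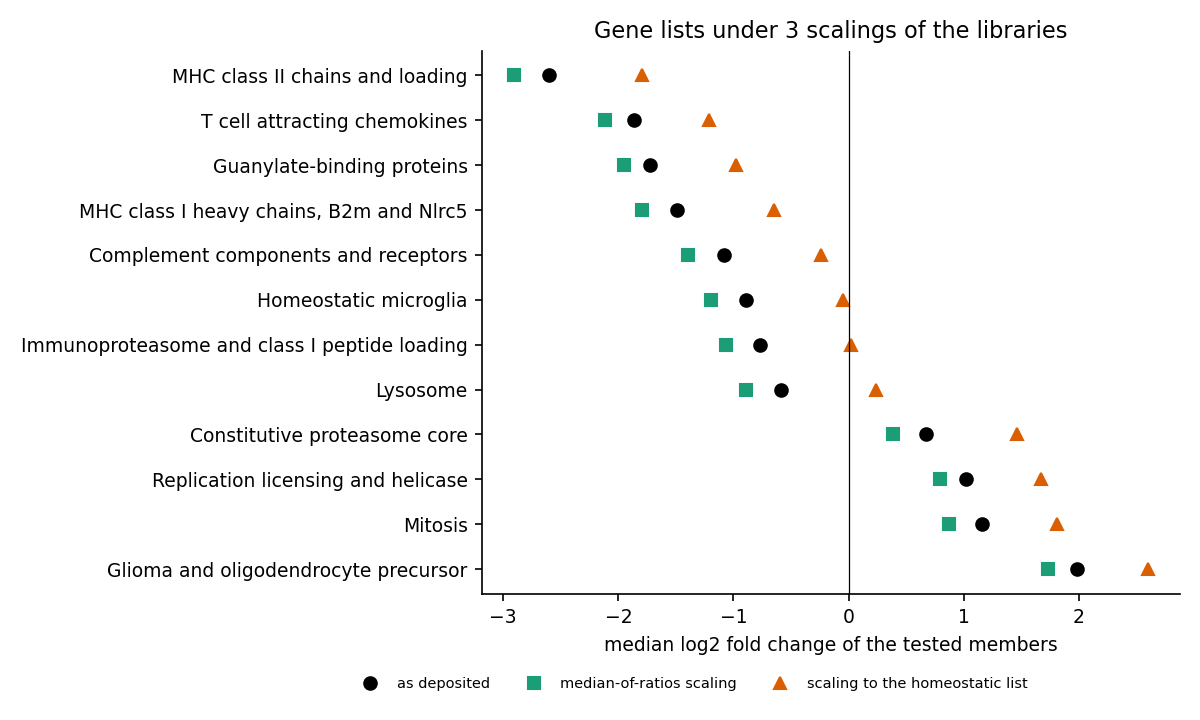
Median log2 fold change of the tested members on the x axis for 12 gene lists, with the libraries as deposited, scaled by the median of ratios, or scaled to the homeostatic microglia list. The class II, T cell chemokine, guanylate-binding protein and class I medians stay below 0 and the mitosis, replication and glioma-lineage medians above 0 under all 3, while the immunoproteasome and lysosome medians cross to 0.02 and 0.24 under the third.

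Some Y-linked genes were higher with CD4 depletion. Eif2s3y stood at 6.86, 4.92 and 4.34 FPKM with CD4 depletion, 1.06 and 0.335 with anti-CTLA4 and 0.896 and 0.947 in IgG, with a log2 fold change of 1.92 (limma adjusted p = 0.0115, SE 0.26). Ddx3y stood at 4.88, 3.24 and 2.52 FPKM with CD4 depletion, 0.6 and 0.149 with anti-CTLA4 and 1.21 and 0.576 in IgG, and Uty at 2.09, 2.09 and 1.6 FPKM with CD4 depletion, 0.379 and 0.03 with anti-CTLA4 and 0.494 and 0.228 in IgG. All 3 were higher in every CD4 depletion library than in every other library. Kdm5d, the remaining Y-linked gene of the list, stood at 0.663, 1.88 and 1.08 FPKM against 0.596 and 0; its lowest CD4 depletion library was just above the higher library labelled anti-CTLA4. Ddx3y, Uty and Kdm5d passed the filter only through CD4 depletion libraries and so had to be higher there, and no test is given for them. Xist, which is transcribed from the inactive X chromosome, was present in every library, at 3.42, 2.55 and 2.42 FPKM with CD4 depletion, 3.85 and 6.08 with anti-CTLA4 and 2.16 and 2.48 in IgG, and did not pass as deposited, with a log2 fold change of -0.64 (limma adjusted p = 0.0663, SE 0.22). Implanted tumour cells carry their own sex chromosomes, and neither the sex of the mice nor that of the cell line is given in the sources used here. A difference in sex between the groups and CD4 depletion cannot be told apart.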

How the data were processed

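The authors counted reads over exons of mm10 with HOMER and deposited them as FPKM, per the file headers, with both strands counted and 1 entry kept per gene, so antisense and overlapping genes cannot be told apart; the column Length holds the transcript length. The submitters' processing notes name STAR, HOMER and DESeq2, with no versions. The scale of analysis was log2(FPKM + 1), fitted by limma 3.58.1 (R 4.3.3): 7 libraries in 3 groups shared 1 trended estimate of the spread, the contrast was CD4 depletion minus anti-CTLA4, two-sided, with Benjamini-Hochberg adjustment over 12660 genes. Fold changes on this scale understate the change of low genes. Of 12660 genes, 103 passed the filter only through both anti-CTLA4 libraries and 873 only through CD4 depletion libraries. An exact permutation test of 3 against 2 cannot go below 0.1.

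Depths come from low values, of which 268 to 302 per library were tested and 100% were whole reads to within 0.1; no count test was run. The smallest adjusted p was 0.00585. On simulated data with 12660 genes, 41% of genes changed by 1 and 88% of those changed by 2 on the log2 scale were recovered. Members and the 51 gene lists were chosen with earlier results of these data known. Named genes were, per direction, the 10 with the largest change past the threshold, non-overlapping and with a mean of at least 5 FPKM, predicted genes, clones and small RNAs left out; up to 4 per described list by smallest p; and a fixed panel; H2-Oa, H2-DMb2, Canx, Calr and Psmb2 were added after their values were seen. Some lists and named genes are not reported here. Coordinates are mm10, those of the table for genes and those of RefSeq for promoters. Alternatives were other pseudocounts, filters, scalings, libraries, a replicate block and no trend.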

Additional observations from a re-analysis of the deposited data

How the results depend on the processing

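All calls rest on replicate 2 of the libraries labelled anti-CTLA4. Leaving out each library in turn gave 0 to 1167 genes lower and 0 to 4094 higher, 0 to 9 class II, 0 to 11 class I, 0 to 9 immunoproteasome, 0 to 9 guanylate-binding protein and 0 to 22 mitosis genes past the threshold, and each lowest count came without that library. The replicate numbers are not stated to pair the samples, and same-numbered libraries of both groups correlated in their deviations at 0.08 and 0.129. Deviations of 2 anti-CTLA4 libraries from their mean mirror each other, so swapping these 2 libraries gave -0.08 and -0.129. These correlations therefore cannot decide whether the samples were paired. With the replicate block, which uses only 2 numbers in common, 0 genes were lower and 0 were higher. There 0 passed in each of those 5 lists by limma, with 4252 genes at an unadjusted p under 0.05. Median-of-ratios scaling gave 1644 lower, 1529 higher, 11 immunoproteasome and 7 mitosis genes, and quantile normalization 1491 lower, 1494 higher, 7 class I and 7 mitosis genes. Scaling to the homeostatic list gave 111 lower, 7219 higher, 4 class I, 0 immunoproteasome and 3 guanylate-binding protein genes. Without the filter 1960 genes were higher, with 5 class I, 3 guanylate-binding protein and 8 mitosis genes, a mean of at least 5 FPKM left 3 guanylate-binding protein genes, and a fit of only the 5 libraries left 11 mitosis genes. The cause of these shifts was not tested. Of 169 named genes that passed, 168 still did with a pseudocount of 0.25, 151 with median-of-ratios scaling and 92 with scaling to the homeostatic list.

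Signs turned mostly with scaling to the homeostatic list. Of genes that had passed, the log2 fold change became 0.10 for Psme1, 0.12 for Pros1, 0.023 for Lyn, 0.11 for Hpgds, 0.012 for Batf3, 0.018 for Hk2, 0.018 for Nfkbie and 0.078 for Ifngr1 and 0.077 for Ifngr2. Of genes that had not passed, it became 0.16 for Nfya, 0.058 for Ly6c1, 0.36 for Foxp3, 0.13 for Klrd1, 0.36 for Nkg7, 0.13 for Gzma, 0.50 for Abca1, 0.042 for Xist, 0.25 for Relb, 0.41 for Cxcl10, 0.27 for Axl, 0.38 for Apoe and 0.15 for Ptprc. Ly6c2 had -0.13 with median-of-ratios scaling, and with quantile normalization Ly6c2 had -0.21, Lck -0.16 and Apoe 0.41. Leaving out single libraries gave -1.08 to 0.85 for Ly6c2, -0.013 to 0.50 for Lck, -1.31 to 0.38 for Apoe, -0.78 to 0.39 for Gzma and -0.029 to 0.90 for Pdgfra. With 3 libraries against 2, differences smaller than the spread between these libraries could not be detected, whatever their depth.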
